A study of Mus musculus with 15 samples.

Results

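The 10 genes followed here in mouse fibroblasts make, bind or receive transforming growth factor beta (TGF-beta): the ligands Tgfb1, Tgfb2 and Tgfb3, the receptors Tgfbr1, Tgfbr2 and Tgfbr3, and the latent TGF-beta binding proteins Ltbp1, Ltbp2, Ltbp3 and Ltbp4. A probe was taken as a member if the array's gene name column, or the symbol in its description, named 1 of these 10 genes. The rule found 14 probes, 2 each for Tgfbr1, Tgfbr2, Ltbp1 and Ltbp3 and 1 for each other gene, among 41174 probes on the array. All 14 were among the 38520 probes tested, and each was well above background in the Cy5 channel on all 15 arrays.

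The RNA came from 5 fibroblast sources measured on 3 arrays each. By their labels 3 sources are resistant (TAF-el4, TAF-tib42 and TAF-tib48, 9 arrays in all) and 2 are sensitive (TAF-tib6 and NSF, 6 arrays); the title of the series links the fibroblasts to tumours refractory to anti-VEGF treatment. TAF is read as tumour-associated fibroblast from that title, and EL4 is a murine lymphoma of T cells. The sources used here do not spell out tib42, tib48, tib6 or NSF, nor strain, genotype, age, passage or treatment, nor whether the arrays of a source held separate cultures, so p-values between sources rest on array-to-array spread, possibly only technical. Runs of consecutive slide barcodes were read as 3 slide packs, an inference from the barcode numbers alone. These packs only partly follow the sources. The first holds NSF with 2 arrays of TAF-el4, and the next TAF-tib42 with 1 array each of TAF-el4 and TAF-tib48. The last holds TAF-tib6 with 2 arrays of TAF-tib48. The source RNA carried Cy5 and a commercial mouse reference RNA carried Cy3 on every array. Values are log2 ratios of source to reference, and a difference of 1 is a 2-fold change; levels of different probes are not comparable, so each probe is compared with itself across sources.

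TGF-beta is secreted as an inactive dimer folded into its own propeptide. Ltbp1, Ltbp3 and Ltbp4 bind that latent complex and anchor it to fibrillin and fibronectin in the matrix, whereas Ltbp2 binds fibrillin but is not known to carry latent TGF-beta. Freed ligand binds the type II receptor Tgfbr2, which phosphorylates the type I receptor Tgfbr1 and through it Smad2 and Smad3; Tgfbr3 (betaglycan) is a co-receptor that presents ligand, above all Tgfb2. In fibroblasts the pathway is best known for driving matrix synthesis and the contractile myofibroblast state.

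Promoter sequence is shown for the 4 genes on which the results turn: Tgfb2, Tgfbr1 and Tgfbr2, whose brighter probe had all 3 resistant means under the 2 sensitive means, and Ltbp2, which varied most. Ltbp3 met the first condition by its brighter probe, but its dimmer probe ran the other way, and its promoter is not shown. Of the 10 genes 8 had a promoter window of 250 bases before to 50 bases after an annotated start in the RefSeq table (GRCm38.p6); Tgfb3 and Tgfbr3 were not matched. The windows are chr1:186705940-186706239 (Tgfb2, minus strand), chr4:47352972-47353271 (Tgfbr1, plus strand, the first of 2 annotated starts), chr9:116175314-116175613 (Tgfbr2, minus strand) and chr12:84876442-84876741 (Ltbp2, minus strand). They are printed in the direction of transcription, and capitals mark matches, on either strand, to 4 motifs searched. The GC box was spelled GGGCGG and the element of the factor AP-1 was spelled TGANTCA. The box bound by the TATA-binding protein was spelled TATAAA, and a repeat bound by Smads was spelled CAGACA.
Tgfb2: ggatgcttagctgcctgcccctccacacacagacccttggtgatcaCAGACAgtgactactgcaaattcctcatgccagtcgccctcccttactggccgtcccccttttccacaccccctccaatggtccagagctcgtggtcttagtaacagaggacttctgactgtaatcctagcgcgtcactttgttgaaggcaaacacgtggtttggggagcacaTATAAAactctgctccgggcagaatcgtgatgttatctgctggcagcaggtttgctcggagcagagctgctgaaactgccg
Tgfbr1: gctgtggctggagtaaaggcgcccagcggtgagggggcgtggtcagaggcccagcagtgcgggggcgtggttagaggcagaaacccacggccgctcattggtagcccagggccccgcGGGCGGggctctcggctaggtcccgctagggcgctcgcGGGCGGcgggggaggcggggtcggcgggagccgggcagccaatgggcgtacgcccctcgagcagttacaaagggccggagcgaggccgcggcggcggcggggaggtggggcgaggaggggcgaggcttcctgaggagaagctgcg
Tgfbr2: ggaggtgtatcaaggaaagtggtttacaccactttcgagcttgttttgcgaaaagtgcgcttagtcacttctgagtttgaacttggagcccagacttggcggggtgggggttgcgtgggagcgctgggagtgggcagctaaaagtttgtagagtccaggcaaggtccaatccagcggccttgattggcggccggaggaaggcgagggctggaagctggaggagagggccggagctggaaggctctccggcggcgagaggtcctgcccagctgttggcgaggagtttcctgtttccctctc
Ltbp2: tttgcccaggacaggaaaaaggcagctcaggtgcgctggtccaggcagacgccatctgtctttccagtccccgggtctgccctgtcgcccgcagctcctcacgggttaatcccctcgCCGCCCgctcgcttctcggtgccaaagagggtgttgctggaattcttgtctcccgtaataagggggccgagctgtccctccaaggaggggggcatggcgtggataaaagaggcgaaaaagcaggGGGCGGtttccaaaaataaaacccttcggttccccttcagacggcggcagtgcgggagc
The Tgfb2 window held 1 TATAAA, at position -31 from the start, and 1 CAGACA, motifs found in 13.6% and 21.0% of 32851 promoter windows of the same length. The Tgfbr1 and Ltbp2 windows held 2 GGGCGG each, a motif found in 35.7% of windows. The Tgfbr2 window held none of the 4 motifs, and none of the 4 windows held TGANTCA, which 7.81% of windows have. These letters describe the windows and show no binding.

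The arrays were checked against cell type markers, with each level given relative to the median Cy5 signal of its array. Of 11 fibroblast markers, 10 lay above the array median on all 15 arrays, and Fap lay below it on all. The T-cell genes Cd3d, Cd3g, Cd2 and Lck lay below the median on every array, while Cd3e lay at 11.9 to 15.4 times it. The brightest lymphocyte marker, Thy1, is also a fibroblast marker. Correlation over probes was 0.9595 to 0.9873 between arrays of a source and 0.8401 to 0.9484 between sources. In bulk RNA, fewer cells that express a gene and less of its RNA per cell cannot be told apart.

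Levels of the family differed between the 5 sources. By limma's moderated F test 12 of the 14 probes passed at an adjusted p under 0.05, against 43.4% of all probes tested; the other two were Tgfb1 (adjusted p = 0.0841) and the dimmer Tgfbr1 probe (adjusted p = 0.212). The widest range of source means belonged to Ltbp2 (2.11 on the log2 scale), followed by Tgfbr2 (1.29) and Tgfbr1 (0.82). TAF-tib42 and TAF-tib48 held the lowest or the next lowest mean of Tgfb2, Tgfb3, Tgfbr1, Tgfbr2 and Ltbp2, and TAF-el4 lay above both of them in all 5 of these.

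**Figure D1:**
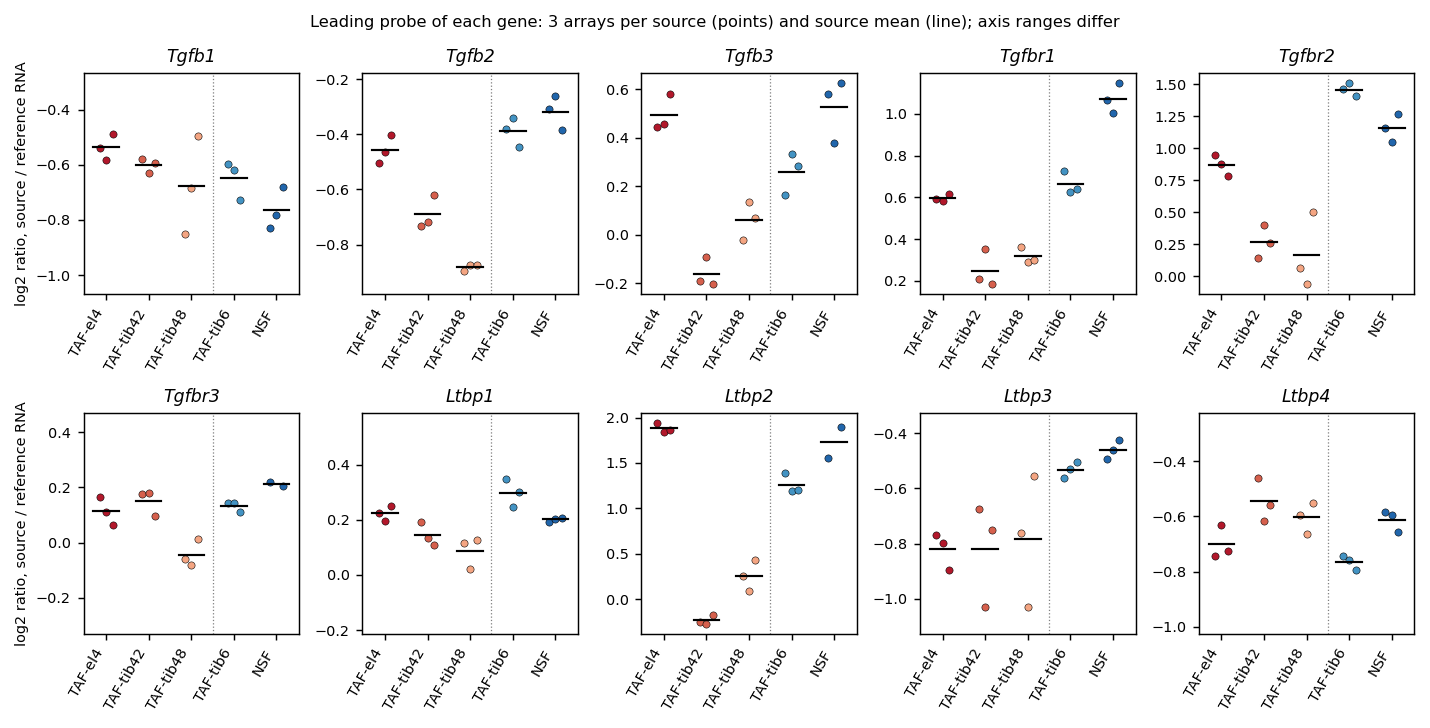
Log2 ratio of source to reference RNA (vertical axis) for the brighter probe of each gene, with 1 point per array and a line at the source mean; axis ranges differ between panels, and the dotted line separates the 3 resistant from the 2 sensitive sources. For Tgfbr1 and Tgfbr2 all 9 resistant arrays lie below all 6 sensitive arrays, while for Ltbp2 the 3 arrays of TAF-el4 lie as high as those of NSF.

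Between resistant and sensitive sources, compared over the 5 source means, no member probe was called at an adjusted p under 0.05, against 0.0026% of all probes (1 of 38520). At an unadjusted p under 0.05 there were 4 of 14 member probes and 9.52% of all probes. The median difference of resistant minus sensitive sources was -0.11 over the 14 probes and 0 over all probes. The source means of resistant and sensitive sources did not overlap for 6 member probes (27.1% of all probes): 5 were lower in every resistant source (12.8% of all probes) and 1 was higher (14.3% of all probes). All 9 resistant arrays lay below all 6 sensitive arrays for 2 probes (2.37% of all probes), the brighter probes of Tgfbr1 and Tgfbr2. They lay above for 1 (1.92% of all probes), the dimmer Ltbp3 probe. No member was called lower in all 6 pairs of a resistant with a sensitive source (1.45% of all probes), and none higher in all 6 (1.15%).

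Of the ligands, Tgfb2 was lower in TAF-tib42 and TAF-tib48 than in either sensitive source. Its log2 ratio was -0.50, -0.46 and -0.40 in TAF-el4, -0.73, -0.72 and -0.62 in TAF-tib42, and -0.90, -0.88 and -0.88 in TAF-tib48. In TAF-tib6 it was -0.38, -0.34 and -0.45, and in NSF -0.31, -0.26 and -0.38. The arrays of TAF-tib42 and TAF-tib48 lay below all 6 sensitive arrays, whereas those of TAF-el4 overlapped with TAF-tib6. In limma's fit of all 15 arrays Tgfb2 fell by 0.49 in TAF-tib48 against TAF-tib6 (1.41-fold lower, SE 0.0463, adjusted p = 2.08e-07) and by 0.56 against NSF (adjusted p = 2.74e-08). It fell by 0.30 in TAF-tib42 against TAF-tib6 (adjusted p = 7.47e-05) and by 0.37 against NSF (adjusted p = 6.87e-06). TAF-el4 differed by -0.07 from TAF-tib6 (adjusted p = 0.36; 0.01 blocked by slide pack, adjusted p = 0.982) and by -0.14 from NSF (adjusted p = 0.047). This last call was kept in 9 of 22 other settings, which gave -0.2 to -0.11; it was lost within the shared slide pack (adjusted p = 0.0504), with the authors' ratios and without any 1 of replicates 1 and 2 of TAF-el4 and NSF. The mean was -0.68 ± 0.21 (SD, n = 3 sources) in resistant and -0.35 ± 0.05 (SD, n = 2 sources) in sensitive sources, a difference of -0.32 (SE 0.127, adjusted p = 0.526, limma on source means). Among resistant sources Tgfb2 was lower in TAF-tib48 than in TAF-tib42 (TAF-tib42 minus TAF-tib48 0.19, adjusted p = 0.00731), but the call was lost blocked by slide pack. The slide pack that held both gave a difference of 0.21, with 1 array of TAF-tib48.

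Tgfb3 separated TAF-el4 from the other resistant sources. Its log2 ratio was 0.45, 0.46 and 0.58 in TAF-el4, -0.19, -0.09 and -0.20 in TAF-tib42, and -0.02, 0.13 and 0.07 in TAF-tib48. The sensitive sources had 0.16, 0.33 and 0.28 in TAF-tib6, and 0.58, 0.38 and 0.62 in NSF. The 6 arrays of TAF-tib42 and TAF-tib48 lay below the 3 arrays of each other source, while TAF-el4 overlapped with NSF. Tgfb3 fell by 0.69 in TAF-tib42 against NSF (1.61-fold lower, SE 0.0649, adjusted p = 2.03e-07) and by 0.47 in TAF-tib48 against NSF (adjusted p = 2.43e-05). Against TAF-tib6 it fell by 0.42 in TAF-tib42 (adjusted p = 7.28e-05; blocked by slide pack -0.30, adjusted p = 0.115) and by 0.20 in TAF-tib48 (adjusted p = 0.0304). Within the slide pack that TAF-tib48 and TAF-tib6 share, this difference was -0.16 (adjusted p = 0.121), and the call was also lost without TAF-tib48 replicate 1 or 3 or TAF-tib6 replicate 2 or 3 (-0.25 to -0.13 over all settings). In TAF-el4 it rose by 0.23 against TAF-tib6 (adjusted p = 0.014), a call lost in 8 of 21 other settings (0.19 to 0.45), among them the slide pack block (adjusted p = 0.055), the authors' ratios, and without TAF-el4 replicate 3 or TAF-tib6 replicate 1. It rose by 0.66 in TAF-el4 against TAF-tib42 (1.58-fold, adjusted p = 3.15e-07). It also fell by 0.27 in TAF-tib6 against NSF (adjusted p = 0.0112), which share no slide pack. That call was lost blocked by slide pack (-0.52, adjusted p = 0.115), with the Cy5 channel alone, and without NSF replicate 1 or 3 or TAF-tib6 replicate 1 (-0.52 to -0.12 over all settings). With the Cy5 channel alone, the calls of TAF-tib42 and TAF-tib48 against NSF had adjusted p-values of 0.0558 and 0.336.

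Tgfb1, the most studied of the ligands, varied least among them. Source means of its log2 ratio were -0.54 ± 0.05 in TAF-el4, -0.60 ± 0.03 in TAF-tib42, -0.68 ± 0.18 in TAF-tib48, -0.65 ± 0.07 in TAF-tib6 and -0.76 ± 0.08 in NSF (SD, n = 3 arrays each). No neighbours in the order of these means were called different, with adjusted p-values of 0.374 to 0.81. Of the 10 pairs of sources 1 was called, TAF-el4 against NSF at 0.23 (SE 0.0676, adjusted p = 0.0247), and the call was lost in 8 of 22 other settings (0.19 to 0.47), among them without replicate 1 or 3 of TAF-el4 or replicate 1 or 2 of NSF. Blocked by slide pack, TAF-el4 against TAF-tib6 had 0.42 (adjusted p = 0.0416). The probe was dim, with a net Cy5 intensity of 62.9 to 118 over the 15 arrays.

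Of the receptors, Tgfbr2 showed the largest difference between resistant and sensitive sources in its brighter probe. Its log2 ratio was 0.95, 0.88 and 0.78 in TAF-el4, 0.14, 0.40 and 0.26 in TAF-tib42, and 0.06, -0.06 and 0.51 in TAF-tib48. In TAF-tib6 it was 1.46, 1.51 and 1.41, and in NSF 1.16, 1.05 and 1.26. All 9 resistant arrays lay below all 6 sensitive ones, the highest resistant array being in TAF-el4 and the lowest sensitive array in NSF. Against TAF-tib6 the ratio fell by 0.59 in TAF-el4 (1.5-fold lower, adjusted p = 0.000309), by 1.19 in TAF-tib42 (2.28-fold lower, adjusted p = 6.1e-08) and by 1.29 in TAF-tib48 (2.44-fold lower, adjusted p = 2.46e-08), each with an SE of 0.103. Against NSF it fell by 0.89 in TAF-tib42 (adjusted p = 2.69e-06) and by 0.99 in TAF-tib48 (adjusted p = 6.58e-07), whereas TAF-el4 differed by -0.29 (adjusted p = 0.0634). Blocked by slide pack, TAF-el4 against TAF-tib6 had -0.51 (adjusted p = 0.211), and within a shared pack TAF-el4 against NSF had -0.25 (adjusted p = 0.0267) and TAF-tib48 against TAF-tib6 -1.24 (adjusted p = 0.000235). In the order TAF-tib6, NSF, TAF-el4, TAF-tib42 and TAF-tib48, the neighbours TAF-el4 and TAF-tib42 were called different (0.60, adjusted p = 0.000207) and the other 3 pairs of neighbours were not. Over source means the resistant sources had 0.43 ± 0.38 (SD, n = 3) and the sensitive sources 1.31 ± 0.21 (SD, n = 2), a difference of -0.87 (SE 0.233, unadjusted p = 0.0123, adjusted p = 0.375 by limma). Leaving out 1 source at a time gave differences of -1.09 to -0.72, all negative and none called.

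Tgfbr1 was highest in NSF and lowest in TAF-tib42 and TAF-tib48. The log2 ratio of its brighter probe was 0.59, 0.58 and 0.61 in TAF-el4, 0.21, 0.35 and 0.19 in TAF-tib42, and 0.36, 0.29 and 0.30 in TAF-tib48. In TAF-tib6 it was 0.73, 0.62 and 0.64, and in NSF 1.07, 1.002 and 1.15. The resistant and sensitive arrays did not overlap, but TAF-el4 lay directly below TAF-tib6, with a difference of -0.07 (adjusted p = 0.401). Against NSF the ratio fell by 0.47 in TAF-el4 (1.39-fold lower, adjusted p = 1.3e-06), by 0.82 in TAF-tib42 (1.77-fold lower, adjusted p = 4.84e-10) and by 0.75 in TAF-tib48 (1.69-fold lower, adjusted p = 1.56e-09), each with an SE of 0.0505. Against TAF-tib6 it fell by 0.42 in TAF-tib42 (adjusted p = 4.82e-06) and by 0.35 in TAF-tib48 (adjusted p = 4.46e-05). It also fell by 0.41 in TAF-tib6 against NSF (adjusted p = 1.65e-05), although blocked by slide pack the difference of -0.37 had an adjusted p of 0.208. Next in order, TAF-el4 lay above TAF-tib48 by 0.28 (adjusted p = 0.000435), a call lost blocked by slide pack. Their shared slide pack, which held 1 array of each, gave 0.25. TAF-tib42 differed from TAF-tib48 by -0.07 (adjusted p = 0.431). The resistant sources averaged 0.39 ± 0.18 (SD, n = 3) and the sensitive sources 0.87 ± 0.29 (SD, n = 2), a difference of -0.48 (SE 0.159, unadjusted p = 0.0279, adjusted p = 0.45 by limma).

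Tgfbr3 had its lowest mean in TAF-tib48. Its source means were 0.11 ± 0.05 in TAF-el4, 0.15 ± 0.05 in TAF-tib42, -0.04 ± 0.05 in TAF-tib48, 0.13 ± 0.02 in TAF-tib6 (SD, n = 3 arrays each) and 0.21 ± 0.01 in NSF (SD, n = 2 arrays, since 1 spot carried an outlier flag). It fell by 0.18 in TAF-tib48 against TAF-tib6 (1.13-fold lower, adjusted p = 0.0054) and by 0.26 against NSF (1.2-fold lower, adjusted p = 0.000656). Neighbours among the other 4 means were not called different, with adjusted p-values of 0.394 to 0.82. Within the slide pack shared with TAF-tib6 the difference was -0.17 (adjusted p = 0.059), and blocked by slide pack the difference from NSF was -0.20 (adjusted p = 0.26).

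Of the binding proteins, Ltbp2 varied most, and TAF-el4 lay opposite to the other resistant sources. Its log2 ratio was 1.94, 1.84 and 1.87 in TAF-el4, -0.25, -0.28 and -0.17 in TAF-tib42, and 0.26, 0.08 and 0.43 in TAF-tib48. In TAF-tib6 it was 1.39, 1.19 and 1.21, and in NSF 1.56 and 1.90 on 2 arrays, the third spot carrying an outlier flag. The arrays of TAF-tib42 lay below all others, those of TAF-tib48 came next, and TAF-el4 overlapped with NSF. Ltbp2 fell by 1.49 in TAF-tib42 against TAF-tib6 (2.82-fold lower, SE 0.0856, adjusted p = 4.38e-10) and was 2.01-fold lower in TAF-tib48 (adjusted p = 1.01e-07). Against NSF it fell by 1.96 in TAF-tib42 (3.89-fold lower, adjusted p = 4.93e-11) and fell by 1.47 in TAF-tib48 (2.77-fold lower, adjusted p = 2.21e-09). In TAF-el4 it rose by 0.62 against TAF-tib6 (1.54-fold, adjusted p = 3.6e-05; blocked by slide pack 0.61, adjusted p = 0.082) and by 2.11 against TAF-tib42 (4.33-fold, adjusted p = 4.23e-12), and it differed by 0.15 from NSF (adjusted p = 0.377). Ltbp2 also fell by 0.47 in TAF-tib6 against NSF (adjusted p = 0.0034), but by 0.30 (adjusted p = 0.0901) without NSF replicate 3 and with an adjusted p of 0.46 blocked by slide pack. Resistant sources averaged 0.63 ± 1.11 (SD, n = 3) and sensitive sources 1.49 ± 0.33 (SD, n = 2), a difference of -0.86 (SE 0.64, adjusted p = 0.73). The summed level of 5 adipocyte markers, relative to the array median, was 24.4 to 27.3 in TAF-el4, 11.6 to 12.9 in TAF-tib42, 6.69 to 7.66 in TAF-tib48, 24.4 to 25.1 in TAF-tib6 and 16.7 to 19.5 in NSF, a sum led by Fabp4 at 2.59 to 23.3. Of the 5 markers Fabp4, Lep (1.41 to 2.1) and Cidec (1.12 to 1.6) lay above the array median on all 15 arrays, Plin1 lay at 0.621 to 1.05, and Adipoq lay below it on all (0.282 to 0.578). The part of these cells in the Ltbp2 values was not tested.

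Ltbp3 was lower in each resistant source by its brighter probe. Its log2 ratio was -0.77, -0.80 and -0.90 in TAF-el4, -0.68, -1.03 and -0.75 in TAF-tib42, and -0.76, -1.03 and -0.56 in TAF-tib48. In TAF-tib6 it was -0.56, -0.53 and -0.50, and in NSF -0.49, -0.46 and -0.43. One array of TAF-tib48 reached the TAF-tib6 values, and the other 8 resistant arrays lay below all 6 sensitive arrays. The resistant sources averaged -0.81 ± 0.02 (SD, n = 3) and the sensitive sources -0.50 ± 0.05 (SD, n = 2), a difference of -0.31 (SE 0.0427, unadjusted p = 0.000638, adjusted p = 0.256 by limma). In pairs the probe fell by 0.36 in TAF-el4 (adjusted p = 0.00871), by 0.36 in TAF-tib42 (adjusted p = 0.00743) and by 0.32 in TAF-tib48 (adjusted p = 0.0144) against NSF. It fell by 0.29 in TAF-el4 (adjusted p = 0.0321) and by 0.29 in TAF-tib42 (adjusted p = 0.0281) against TAF-tib6, where TAF-tib48 had -0.25 (adjusted p = 0.0545). Blocked by slide pack, these 5 calls were lost, with adjusted p-values of 0.057 to 0.673; within a shared pack TAF-el4 against NSF stayed called at -0.32 (adjusted p = 0.000871). The call of TAF-el4 against TAF-tib6 was lost without any 1 of their 6 arrays (-0.39 to -0.19 over all settings), and that of TAF-tib42 against TAF-tib6 without TAF-tib42 replicate 2 or any 1 array of TAF-tib6 (-0.37 to -0.18). Against NSF the calls of TAF-tib42 and TAF-tib48 were lost without replicate 2 of either source (-0.54 to -0.25 and -0.46 to -0.19).

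Ltbp4 had its lowest mean in TAF-tib6. Its source means were -0.70 ± 0.06 in TAF-el4, -0.54 ± 0.08 in TAF-tib42, -0.60 ± 0.06 in TAF-tib48, -0.77 ± 0.03 in TAF-tib6 and -0.61 ± 0.04 in NSF (SD, n = 3 arrays each). It rose by 0.22 in TAF-tib42 (1.17-fold, adjusted p = 0.00219) and by 0.16 in TAF-tib48 (1.12-fold, adjusted p = 0.0193) against TAF-tib6. Blocked by slide pack both calls were lost, at 0.21 in TAF-tib42 (adjusted p = 0.185) and 0.16 in TAF-tib48 (adjusted p = 0.0581), and the TAF-tib48 call was also lost without TAF-tib48 replicate 1 or 3 or TAF-tib6 replicate 3 (0.11 to 0.22 over all settings). Ltbp4 also fell by 0.15 in TAF-tib6 against NSF (adjusted p = 0.0498), a call kept in 6 of 21 other settings. In TAF-el4 against TAF-tib42 it fell by 0.16 (adjusted p = 0.0248), a call kept in 13 of 22. No neighbours in the order of its means were called different. The brighter Ltbp1 probe spanned only 0.21, with means of 0.22 ± 0.03 in TAF-el4, 0.15 ± 0.04 in TAF-tib42, 0.09 ± 0.06 in TAF-tib48, 0.30 ± 0.05 in TAF-tib6 and 0.20 ± 0.01 in NSF (SD, n = 3 arrays each). It fell by 0.15 in TAF-tib42 (adjusted p = 0.013) and by 0.21 in TAF-tib48 (adjusted p = 0.00117) against TAF-tib6, and both directions turned with the Cy5 channel alone, to 0.19 and 0.05. The TAF-tib42 call was also lost blocked by slide pack (-0.19, adjusted p = 0.15) and without TAF-tib42 replicate 3 or TAF-tib6 replicate 1.

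**Figure D2:**
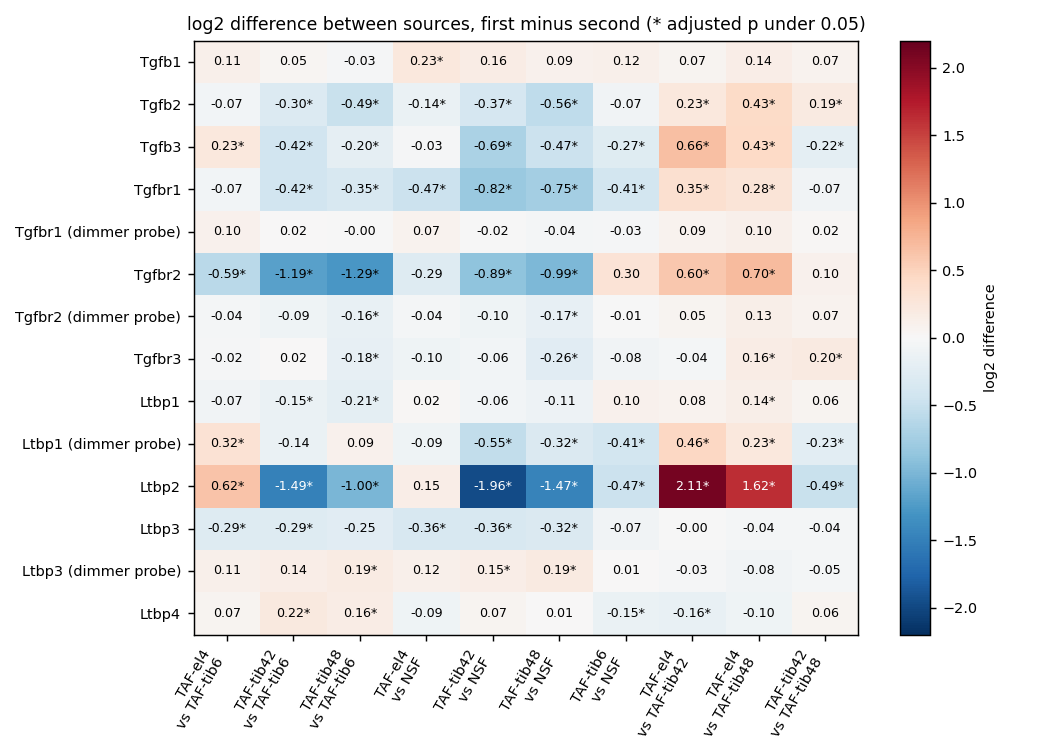
Log2 differences of all 14 probes (rows) in the 10 pairs of sources (columns), first source minus second, with asterisks at an adjusted p under 0.05 in limma's fit of 15 arrays. The columns of TAF-tib42 and TAF-tib48 against TAF-tib6 and NSF are mostly negative, with the deepest values for Ltbp2 (-1.96 in TAF-tib42 against NSF), and the 2 columns of TAF-el4 against the other resistant sources are mostly positive.

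Of the 10 genes 4 were read by 2 probes, and the paired probes disagreed in size or direction. In the coordinates of the deposited files, which name no build, they lie 7.52 kb apart for Tgfbr1, 22 kb for Tgfbr2, 165 kb for Ltbp1 and 6.52 kb for Ltbp3. The dimmer Tgfbr1 probe spanned 0.11 over the 5 source means, against 0.82 for the brighter one, and made no call in any of the 10 pairs. The dimmer Tgfbr2 probe, listed under another transcript record of the gene, spanned 0.17 against 1.29, and its 2 calls, TAF-tib48 against TAF-tib6 (-0.16, adjusted p = 0.0139) and against NSF (-0.17, adjusted p = 0.00967), had the direction of the brighter probe. Within the shared slide pack the first had an adjusted p of 0.0557, and blocked by slide pack the other had an adjusted p of 0.193; they were lost in 7 of 21 and 7 of 20 other settings, the first also without TAF-tib6 replicate 2 and the other without NSF replicate 2. Over the 15 arrays the paired Tgfbr2 probes correlated at r = 0.683 and the Tgfbr1 probes at r = 0.158, as a description over arrays that share sources and a reference. The dimmer probes had a median net Cy5 intensity of 64.9 for Tgfbr1 and 48.9 for Tgfbr2 over a background of 52 to 56.

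The dimmer Ltbp3 probe ran against the brighter one (r = -0.664 over 15 arrays). Its log2 ratio was -0.40 ± 0.03 in TAF-el4, -0.38 ± 0.03 in TAF-tib42, -0.33 ± 0.08 in TAF-tib48, -0.51 ± 0.09 in TAF-tib6 and -0.52 ± 0.03 in NSF (SD, n = 3 arrays each). It rose in TAF-tib48 by 0.19 against TAF-tib6 (1.14-fold, adjusted p = 0.0106) and by 0.19 against NSF (adjusted p = 0.00774), and in TAF-tib42 by 0.15 against NSF (adjusted p = 0.04). The paired probes thus called 2 pairs, TAF-tib42 and TAF-tib48 against NSF, in opposite directions. The dimmer probe's call of TAF-tib42 against NSF was kept in 4 of 20 other settings (0.02 to 0.20) and was lost without any 1 of their 6 arrays. Its call of TAF-tib48 against NSF was lost blocked by slide pack (0.16, adjusted p = 0.437) and without TAF-tib48 replicate 2 (0.15 to 0.30 over all settings). Its call of TAF-tib48 against TAF-tib6 was lost without TAF-tib48 replicate 2 or TAF-tib6 replicate 1 (0.13 to 0.27). The dimmer Ltbp1 probe varied more than the brighter one, with -1.04 ± 0.10 in TAF-el4, -1.5 ± 0.09 in TAF-tib42, -1.27 ± 0.06 in TAF-tib48, -1.36 ± 0.02 in TAF-tib6 and -0.95 ± 0.06 in NSF (SD, n = 3 arrays each). It fell by 0.55 in TAF-tib42 (1.46-fold lower, adjusted p = 5.18e-07), by 0.32 in TAF-tib48 (adjusted p = 0.000253) and by 0.41 in TAF-tib6 (1.33-fold lower, adjusted p = 4.68e-05) against NSF. It rose by 0.32 in TAF-el4 against TAF-tib6 (adjusted p = 0.000268), where the brighter probe differed by -0.075 (adjusted p = 0.251). In TAF-tib48 against TAF-tib6 the dimmer probe differed by 0.09 (adjusted p = 0.279), while the brighter one fell. In TAF-tib42 it differed by -0.14 (adjusted p = 0.08), in the direction of the brighter probe. The paired Ltbp1 probes correlated at r = 0.156 over 15 arrays.

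**Figure D3:**
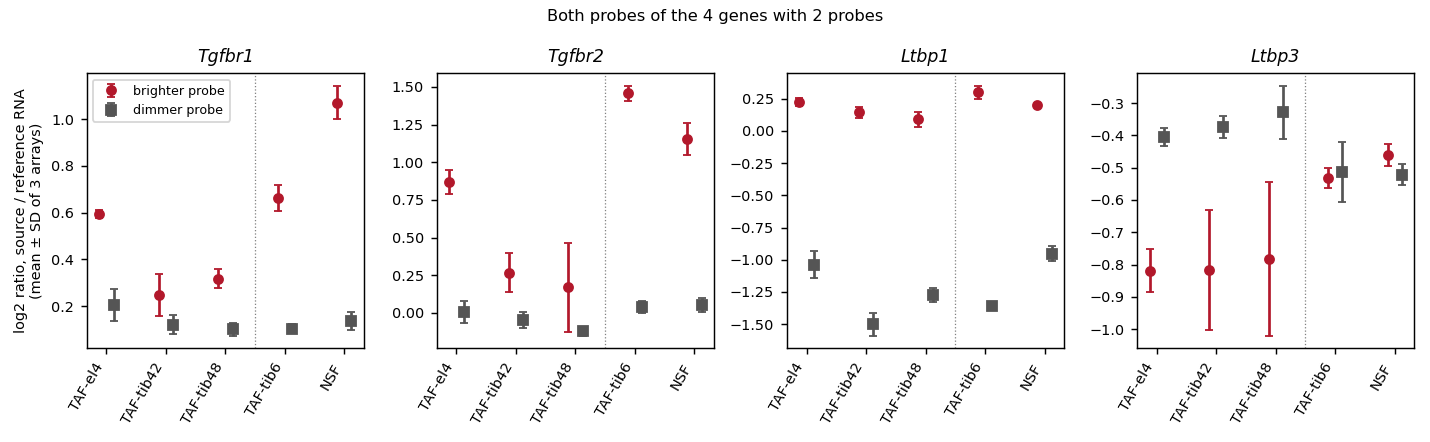
Log2 ratio of source to reference RNA (mean ± SD of 3 arrays) for the brighter (circles) and the dimmer (squares) probe of the 4 genes with 2 probes; the dotted line separates resistant from sensitive sources. The dimmer Tgfbr1 and Tgfbr2 probes are nearly flat, and the Ltbp3 probes run in opposite directions.

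Counted by pair, calls over the 14 probes leaned to lower values in TAF-tib42 and TAF-tib48. The share of all probes called is given beside each count. Against TAF-tib6, TAF-el4 had 3 higher (11.6%) and 2 lower (8.95%), or 20.6% of all probes either way. TAF-tib42 had 1 higher (12.2%) and 7 lower (12.6%) against TAF-tib6, with 24.8% either way, and TAF-tib48 had 2 higher (12.3%) and 8 lower (12.5%), with 24.8% either way. Against NSF, TAF-el4 had 1 higher (8.88%) and 3 lower (8.54%), with 17.4% either way. TAF-tib42 had 1 higher (11.2%) and 7 lower (13%) against NSF, with 24.2% either way, and TAF-tib48 had 1 higher (12.5%) and 9 lower (14.1%), with 26.5% either way. The sensitive pair, TAF-tib6 against NSF, had 0 higher (4.41%) and 5 lower (6.63%), with 11% either way. Median differences over the 14 probes were -0.15 and -0.19 for TAF-tib42 and TAF-tib48 against TAF-tib6, where those of all probes were within 0.01 of 0. Against NSF they were -0.23 and -0.29. Comparisons against the same source share its arrays. Among resistant sources TAF-el4 had 6 higher (13.2%) and 1 lower (9.93%) against TAF-tib42, with 23.1% either way, and 8 higher (13.5%) and 0 lower (10.1%) against TAF-tib48, with 23.6% either way. TAF-tib42 had 2 higher (6.5%) and 3 lower (7.66%) against TAF-tib48, with 14.2% either way.

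Levels of several members moved together over the arrays. As a description over arrays that share sources and a reference, the brighter probes of Tgfb3 and Ltbp2 correlated at r = 0.934 (14 arrays), Tgfb2 and Tgfbr2 at r = 0.865, and Tgfb3 and Tgfbr1 at r = 0.826 (15 arrays each). Ltbp4 ran the other way from Tgfbr2 (r = -0.642, 15 arrays) and Ltbp2 (-0.614, 14 arrays). Tgfb1 hardly correlated with Tgfbr2 (-0.04) or Tgfb3 (-0.074), over 15 arrays. Among 16003 other genes the 3 most like Ltbp2 were Parm1 (r = 0.9871), Phldb2 (0.9804) and Smim3 (0.9801), over 14 arrays. The 3 most like Tgfbr2 were Itga11 (0.9834), Prnp (0.9801) and Cstad (0.9746), and the 3 most like Tgfbr1 were Efna5 (0.9785), Hs6st1 (0.9758) and Olfml2b (0.9711), over 15 arrays.

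Other genes of the pathway were read from 5 lists, whose calls stand beside the shares of all probes given above. Unlike those of the members, these calls were not rerun with slide packs blocked, with arrays left out or with other processing. TAF-el4 and TAF-tib42 share no slide pack with TAF-tib6, and TAF-tib42, TAF-tib48 and TAF-tib6 share none with NSF. Of 15 matrix partners of the latent complex, 9 fell and 1 rose in TAF-el4 against TAF-tib6, 11 fell and 1 rose in TAF-tib42, and 10 fell and 1 rose in TAF-tib48. Against NSF 9 fell in TAF-el4, 11 in TAF-tib42 and 11 in TAF-tib48, with 1 that rose in each, and TAF-tib6 had 5 each way. The median difference of the list was -0.39, -0.46 and -0.44 against TAF-tib6 in TAF-el4, TAF-tib42 and TAF-tib48. Dcn, a proteoglycan that binds TGF-beta, had log2 ratios of -3.03 ± 0.08 in TAF-el4, -2.82 ± 0.07 in TAF-tib42, -2.76 ± 0.42 in TAF-tib48, -1.31 ± 0.07 in TAF-tib6 and -0.01 ± 0.28 in NSF (SD, n = 3 arrays each). It fell in all 6 pairs of a resistant with a sensitive source. Its relative Aspn fell in all 6 pairs too, by 1.87 in TAF-tib42 against TAF-tib6 (adjusted p = 9.36e-14). Fbn2, a fibrillin of the microfibrils that hold latent complexes, fell by 1.41 in TAF-el4 (adjusted p = 3.86e-12), by 1.5 in TAF-tib42 (adjusted p = 2.68e-13) and by 1.40 in TAF-tib48 (adjusted p = 1.85e-12) against TAF-tib6. Emilin1, an inhibitor of pro-TGF-beta processing, fell by 0.56 in TAF-el4 (adjusted p = 2.95e-05), by 0.90 in TAF-tib42 (adjusted p = 5.77e-08) and by 0.71 in TAF-tib48 (adjusted p = 1.46e-06) against TAF-tib6. For Fbn2, Aspn and Emilin1, falls in TAF-el4 and TAF-tib42 were smaller against NSF than against TAF-tib6. Against NSF they were 0.48 and 0.57 for Fbn2, 0.56 and 0.72 for Aspn, and 0.27 and 0.61 for Emilin1. Dcn went the other way in these sources, at -1.723 and -1.509 against TAF-tib6 and -3.028 and -2.814 against NSF. The median difference of the list against NSF was -0.36 in TAF-el4 and -0.487 in TAF-tib42. Means in TAF-tib6 and NSF were 1.418 and 0.485 for Fbn2, 0.814 and -0.344 for Aspn, and 0.779 and 0.49 for Emilin1.

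Of 20 genes that activate or process latent TGF-beta 17 were tested. In TAF-el4 5 rose and 5 fell against TAF-tib6, in TAF-tib42 3 rose and 8 fell, and in TAF-tib48 3 rose and 6 fell; against NSF 4 rose and 4 fell in TAF-el4, 1 rose and 9 fell in TAF-tib42, and 2 rose and 8 fell in TAF-tib48. Plat, the tissue plasminogen activator, fell in all 6 pairs, by 0.34 in TAF-el4, 0.31 in TAF-tib42 and 0.34 in TAF-tib48 against TAF-tib6 (adjusted p = 0.000577, 0.00115 and 0.000527). Bmp1, a metalloproteinase that cleaves Ltbp1, fell by 0.24 in TAF-el4 (adjusted p = 0.0234), by 0.80 in TAF-tib42 (adjusted p = 1.21e-07) and by 0.70 in TAF-tib48 (adjusted p = 6.75e-07) against TAF-tib6. Mmp2, a gelatinase able to release TGF-beta, fell by 0.75 in TAF-el4, by 0.45 in TAF-tib42 and by 1.33 in TAF-tib48 against TAF-tib6 (adjusted p = 3.66e-06, 0.000771 and 1.61e-09). Furin, the protease that cleaves the TGF-beta propeptide, rose by 0.17 in TAF-el4 (adjusted p = 0.0134) and fell by 0.28 in TAF-tib42 (adjusted p = 0.000176) and by 0.23 in TAF-tib48 (adjusted p = 0.00118) against TAF-tib6.

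Of 11 accessory receptors and decoys, 3 rose and 0 fell in TAF-el4 against TAF-tib6, 4 rose and 3 fell in TAF-tib42, and 5 rose and 2 fell in TAF-tib48. Against NSF 2 rose and 1 fell in TAF-el4, 2 rose and 3 fell in TAF-tib42, and 3 rose and 3 fell in TAF-tib48. Cd109, a co-receptor that dampens TGF-beta signalling, rose by 0.99 in TAF-tib42 (adjusted p = 1.16e-09) and by 1.05 in TAF-tib48 (adjusted p = 6.45e-10) against TAF-tib6, and TAF-el4 differed by 0.04 (adjusted p = 0.759). Against NSF Cd109 fell by 0.34 in TAF-el4 (adjusted p = 0.000633), and rose by 0.61 in TAF-tib42 (adjusted p = 8.99e-07) and by 0.67 in TAF-tib48 (adjusted p = 2.28e-07). Eng, a co-receptor best known in endothelium, rose by 0.55 in TAF-tib48 (adjusted p = 1.05e-06) and by 0.19 in TAF-tib42 (adjusted p = 0.02) against TAF-tib6. Beside it, the summed level of 6 endothelial markers was 9.8 to 11.5 times the array median in TAF-tib48, 3.88 to 4.86 in TAF-el4, 4.08 to 4.72 in TAF-tib42, 4.46 to 4.69 in TAF-tib6 and 4.65 to 5.25 in NSF, with their part in the Eng value not tested. Emcn led that sum (1.26 to 7.17 over all arrays), Kdr was the other marker above the median on all arrays (1.4 to 2.03), and Pecam1 (0.134 to 0.541), Tie1 (0.179 to 0.264) and Tek (0.275 to 0.691) lay below it on all. The remaining marker, Cdh5, lay at 0.188 to 1.19 times the median. Acvrl1, an endothelial type I receptor, fell by 0.34 in TAF-tib48 (adjusted p = 0.00137) and by 0.28 in TAF-tib42 (adjusted p = 0.00741) against TAF-tib6. Vasn, a decoy that binds TGF-beta, rose by 0.46 in TAF-el4 (adjusted p = 1.19e-06) and by 0.23 in TAF-tib42 (adjusted p = 0.0018) against TAF-tib6. In TAF-tib48 Vasn rose by 0.14 against TAF-tib6 (adjusted p = 0.0428) but fell by 0.18 against NSF (adjusted p = 0.0112). Against NSF Vasn differed by -0.09 in TAF-tib42 (adjusted p = 0.203) and rose by 0.14 in TAF-el4, with an adjusted p just under 0.05.

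Of 18 Smads and Smad regulators 17 were tested. In TAF-el4 4 rose and 1 fell against TAF-tib6, in TAF-tib42 2 rose and 3 fell, and in TAF-tib48 4 rose and 2 fell. Against NSF 3 rose and 2 fell in TAF-el4, 1 rose and 4 fell in TAF-tib42, and 2 rose and 3 fell in TAF-tib48. Smad7, the inhibitory Smad that the pathway induces, was called in all 7 comparisons of a TAF source with TAF-tib6 or NSF. It rose by 0.75 in TAF-el4 (adjusted p = 3.98e-09), and fell by 0.28 in TAF-tib42 (adjusted p = 0.00031) and by 0.25 in TAF-tib48 (adjusted p = 0.00104) against TAF-tib6. Smad3, which carries the signal to the nucleus, rose by 0.30 in TAF-el4 (adjusted p = 4.83e-05) and by 0.17 in TAF-tib42 (adjusted p = 0.00789) against TAF-tib6, and differed by 0.08 in TAF-tib48 (adjusted p = 0.179). Against NSF the direction of Smad3 turned: it fell by 0.21 in TAF-tib42 (adjusted p = 0.00109) and by 0.30 in TAF-tib48 (adjusted p = 3.82e-05), and differed by -0.09 in TAF-el4 (adjusted p = 0.239). Tgif2, a co-repressor of Smads, fell in all 6 pairs of a resistant with a sensitive source, by 0.19 to 0.35 against TAF-tib6 (adjusted p = 3.03e-05 to 0.00954). Sdcbp, a scaffold that binds the tails of membrane proteins, rose by 0.41 in TAF-tib48 against TAF-tib6 (adjusted p = 0.000281) and fell by 0.33 in TAF-el4 against NSF (adjusted p = 0.00228).

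The list of responsive genes does not separate those that TGF-beta raises from those that it lowers, so its counts give no direction of signalling. Of 36 genes known to respond to TGF-beta, 16 rose and 9 fell in TAF-el4 against TAF-tib6, 4 rose and 19 fell in TAF-tib42, and 7 rose and 18 fell in TAF-tib48. Against NSF 13 rose and 7 fell in TAF-el4, 4 rose and 20 fell in TAF-tib42, and 4 rose and 18 fell in TAF-tib48. Among resistant sources TAF-el4 had 22 higher and 3 lower against TAF-tib42 and 22 higher and 2 lower against TAF-tib48. Id3 and Id2, inhibitors of helix-loop-helix factors, fell in all 6 pairs of a resistant with a sensitive source, Id3 by 1.26 (adjusted p = 2.49e-11) and Id2 by 0.72 (adjusted p = 1.18e-06) in TAF-tib42 against TAF-tib6. Junb, an AP-1 subunit, rose by 0.49 in TAF-el4 (adjusted p = 0.000133), and fell by 0.34 in TAF-tib42 (adjusted p = 0.00333) and by 0.65 in TAF-tib48 (adjusted p = 4.93e-06) against TAF-tib6. Against NSF Junb fell in all 3 resistant sources, by 0.26 in TAF-el4 (adjusted p = 0.025), by 1.1 in TAF-tib42 (adjusted p = 4.84e-09) and by 1.41 in TAF-tib48 (adjusted p = 1.23e-10). Itga11, a collagen-binding integrin chain, fell by 1.43 in TAF-el4 (adjusted p = 4.6e-06), fell by 2.55 in TAF-tib42 (adjusted p = 1.46e-09) and fell by 3.01 in TAF-tib48 (adjusted p = 2.14e-10) against TAF-tib6. Against NSF Itga11 differed by -0.43 in TAF-el4 (adjusted p = 0.0981). The fit on source means called no gene of the 5 lists; the median of resistant minus sensitive sources was -0.41 for matrix partners, -0.17 for responsive genes, -0.07 for activators, 0.03 for accessory receptors and 0.03 for Smads.

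**Figure D4:**
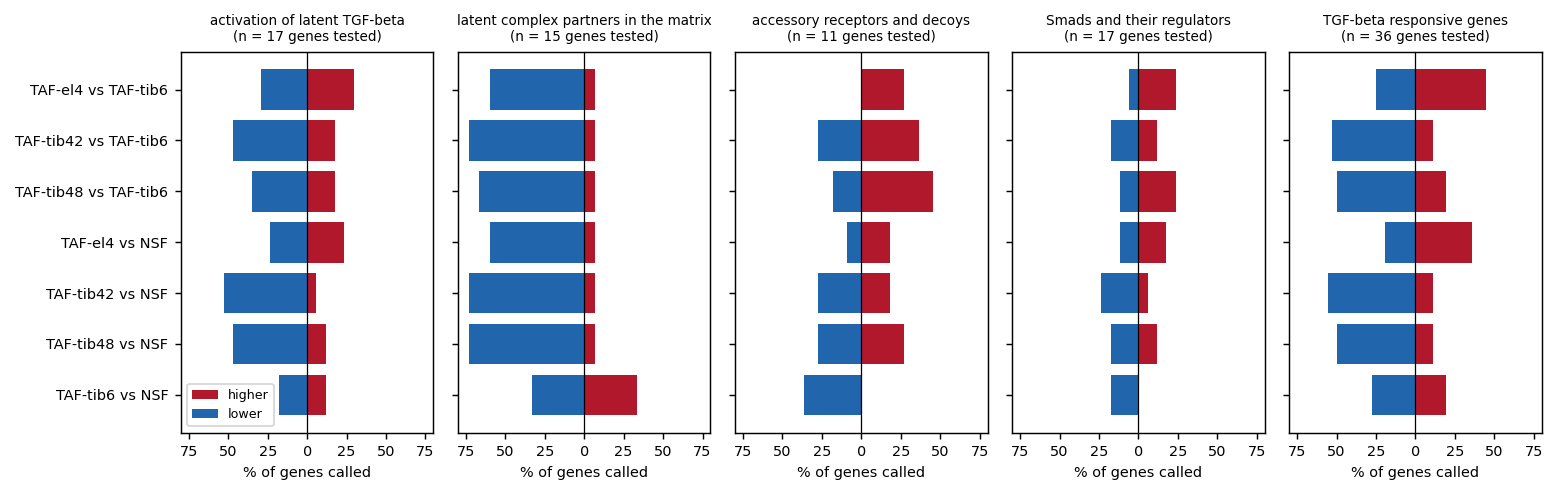
Percentage of tested genes of each list called higher (right, red) or lower (left, blue) at an adjusted p under 0.05 in 7 comparisons (rows) of a TAF source with TAF-tib6 or NSF. Among matrix partners of the latent complex 9 to 11 of 15 genes were lower in each resistant source, and among responsive genes the bars of TAF-el4 lean to the right (16 higher, 9 lower against TAF-tib6) and those of TAF-tib42 and TAF-tib48 to the left.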

How the data were processed

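In all, 15 arrays with 2 colours were used, 3 per source, with the source RNA in Cy5 and the reference RNA in Cy3, so dyes were not swapped. Per the file headers, the deposited scanner files hold spot intensities (mean signal and median local background), the scanner's log10 ratio of Cy5 to Cy3, and flags of other kinds, made with Agilent Feature Extraction 8.5.1.1. The authors also deposited 1 table of log2 ratios, which matched the scanner's with a correlation of 1, medians of 0.0338 to 0.0511. Intensities were corrected by normexp (offset 50) and loess within arrays with limma 3.58.1 in R 4.3.3. Control spots had weight 0, outlier spots were left out, and spots of a probe were averaged. Probes well above background in Cy5 on all 3 arrays of a source were tested. Pairs of sources were fitted by limma over 15 arrays; resistant and sensitive sources by limma on 5 source means. Tests were two-sided, adjusted by Benjamini-Hochberg over 38520 probes. The brighter of several probes led a gene; up to 4 genes of each pathway list were named, by number of calls in 7 comparisons. Members, lists and rules were chosen with earlier results of these data known. Slide packs, inferred from runs of consecutive array barcodes, held 2 or 3 sources each. Same-numbered arrays of different sources did not deviate together (30 correlations of -0.187 to 0.16, median -0.0209), so the numbers were not used as pairs. The steps were tested on simulated data, which had no slide pack effect and no spread between sources beyond the changes put in. The median Cy5 signal per array was 174.7 to 285.9 against a local background of 52 to 56; precision is limited by the small number of arrays. One responsive gene is counted in its list but not reported here by name.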

Additional observations from a re-analysis of the deposited data

How the results depend on the processing

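The counts of called member probes stayed within 1.5 times their values without background subtraction, with median centring, scaled ratios, the scanner's or the authors' ratios, other filters, 1 probe per gene, and slide pack as a random block. The exceptions follow. With the Cy5 channel alone the counts were 3 for TAF-el4, 5 for TAF-tib42 and 6 for TAF-tib48 against TAF-tib6, 5 for TAF-tib48 and 3 for TAF-tib6 against NSF, and 2 for TAF-tib42 against TAF-tib48. With slide pack as a block they were 2 for TAF-el4 and 4 for TAF-tib42 against TAF-tib6, 6 for TAF-tib48 and 1 for TAF-tib6 against NSF, and 2 for TAF-tib42 against TAF-tib48. Within a pack the count was 6 for TAF-tib48 against TAF-tib6, where fewer arrays entered the fit. The count for TAF-tib42 against TAF-tib48 within a pack also moved, but rested on 1 array of TAF-tib48 and is not given. For the other settings the cause was not tested. The brighter Ltbp1 probe turned with Cy5 alone, to 0.194 in TAF-tib42 and 0.046 in TAF-tib48 against TAF-tib6, and to -0.021 in TAF-el4 against TAF-tib48.

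Leaving out arrays gave 3 to 5 calls for TAF-el4, 5 to 9 for TAF-tib42 and 5 to 9 for TAF-tib48 against TAF-tib6. It gave 2 to 5 for TAF-el4, 6 to 8 for TAF-tib42, 7 to 10 for TAF-tib48 and 2 to 4 for TAF-tib6 against NSF. Among resistant sources it gave 6 to 7 for TAF-el4 against TAF-tib42, 6 to 9 for TAF-el4 and 1 to 5 for TAF-tib42 against TAF-tib48. Single arrays that moved a count by over 1.5 times were TAF-el4 replicate 3 and TAF-tib6 replicate 1 (3 calls each, TAF-el4 against TAF-tib6), TAF-el4 replicate 1 and NSF replicates 1 and 2 (2 calls each, TAF-el4 against NSF), NSF replicates 1 and 3 and TAF-tib6 replicate 1 (3, 2 and 3 calls, TAF-tib6 against NSF), and TAF-tib42 replicate 3 (3 calls, TAF-tib42 against TAF-tib48). The test over all 5 sources gave 8 to 13, and resistant against sensitive sources gave 0 throughout.

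With all 15 arrays and the source as a random block, 3 probes were called between resistant and sensitive sources: Tgfb2 (adjusted p = 0.0278), Tgfbr1 (0.00902) and Tgfbr2 (0.00607). The same fit called 4.74% of all probes. It assumed a shared correlation of 0.401 between arrays of a source for every probe, although the response belongs to the source. Its p-values can thus be too small for probes that vary mostly between sources. By limma on source means Tgfb2, Tgfbr1 and Tgfbr2 had adjusted p-values of 0.526, 0.45 and 0.375. With the replicate block as well there were again 3, and 3.93% of all probes. In the pairs of sources the replicate block moved no count by over 1.5 times, and among calls it lost that of Tgfb2 in TAF-el4 against NSF (adjusted p = 0.0632) and that of Ltbp4 in TAF-tib6 against NSF. Scan day could not be run as a batch, since all arrays were scanned on 1 day. Probes with a net Cy5 signal near the background of 52 to 56 limit what can be seen.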
